A study of Mus musculus with 192 samples.

Results

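The 7 genes of a chemokine group were followed in individual mouse embryonic fibroblasts (MEFs), cultured connective-tissue cells of the embryo, by start-site sequencing, which reads the 5′ end of each polyadenylated RNA. They are Ccl2, Ccl7, Ccl5, Cxcl1, Cxcl5, Cxcl10 and Cxcl12, out of 12499 genes that have at least 1 deposited start window within 1000 bp of a RefSeq start. They hold 83 of the 553094 deposited windows, taken by gene name and distance. The labels give C57BL/6 cells, grown in serum on uncoated plastic and given interferon-beta at 100 U/ml for 1 h in both groups; 96 cells are labelled naïve and 96 pretreated, and what the pretreatment was is not said. No culture, animal or plate is named, so each group counts as 1 sample, no difference between groups was tested, and intervals cover counting error only.

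Chemokines are small secreted proteins that draw leukocytes along a gradient through receptors on the cell surface. The CC class (Ccl genes) acts mainly on monocytes and lymphocytes, and the CXC class holds neutrophil attractants such as Cxcl1 and Cxcl5, the interferon-inducible T cell attractant Cxcl10, and Cxcl12, which fibroblasts and other stromal cells make without a stimulus. Fibroblasts switch on several of the inflammatory members through NF-kappaB, and Cxcl10 and Ccl5 also through interferon-activated factors.

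The sequences before the starts are shown for the members that could be matched, which differ in the motifs held there. Those of Ccl2, Ccl7, Ccl5 and Cxcl5 were not read. RefSeq sequence on GRCm38.p6 was matched for 3 of the 7 genes, and the 250 bases before each annotated start are given, 5′ to 3′ along the gene. Capitals mark matches, on either strand, to 3 motifs chosen after these sequences were seen: the NF-kappaB consensus of 10 bases, the core of the interferon-stimulated response element (GAAA, any 2 bases, GAAA) and the GC box (GGGCGG). Overlapping matches run together in capitals.
Cxcl1 (chr5:90890995-90891244, + strand): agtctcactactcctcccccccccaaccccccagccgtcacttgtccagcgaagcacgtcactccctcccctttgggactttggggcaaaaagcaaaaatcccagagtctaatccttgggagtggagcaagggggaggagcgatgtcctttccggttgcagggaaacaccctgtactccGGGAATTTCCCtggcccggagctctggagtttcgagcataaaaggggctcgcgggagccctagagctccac
Cxcl10 (chr5:92348890-92349139, − strand): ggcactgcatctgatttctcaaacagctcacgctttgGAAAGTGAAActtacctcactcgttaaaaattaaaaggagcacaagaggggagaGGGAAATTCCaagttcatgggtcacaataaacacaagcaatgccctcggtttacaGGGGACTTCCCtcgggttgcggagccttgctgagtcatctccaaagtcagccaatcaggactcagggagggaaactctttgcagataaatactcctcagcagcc
Cxcl12 (chr6:117168285-117168534, + strand): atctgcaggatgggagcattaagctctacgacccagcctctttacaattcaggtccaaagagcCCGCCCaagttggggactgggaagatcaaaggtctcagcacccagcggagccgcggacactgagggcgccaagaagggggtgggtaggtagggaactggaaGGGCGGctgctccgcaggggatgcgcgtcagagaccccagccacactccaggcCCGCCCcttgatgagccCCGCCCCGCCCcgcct
Cxcl1 held 2 overlapping NF-kappaB matches, on opposite strands, between 71 and 61 bases before the start. Cxcl10 held 3 NF-kappaB matches, of which 2 overlap, and 1 interferon-element match from 213 to 204 bases before the start. Cxcl12 held 5 GC-box matches, the last pair sharing 1 base, and no match to the other motifs in this stretch. Among 32851 RefSeq stretches of the same length, 7.25% held an NF-kappaB match, 2.98% an interferon-element match and 32.7% a GC box. Because the motifs were chosen after the sequences were seen, these shares do not test the matches. A match describes letters and is not a measured binding site.

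After cells with under 10% of the median total tags were left out, 92 naïve and 85 pretreated cells remained, with medians of 2305628 and 2650490 total tags (305066 to 3857034 and 502374 to 13174313). Levels are tags per 10000000 tags of the cell (TP10M), as deposited, summed over a gene's windows, and a cell without a listed peak counts as 0. A 5′ tag does not scale with RNA length, so genes were compared without a length term. Peaks were called with a threshold setting of 200 TP10M, and 0.476% of listed peaks lay below it, down to 110.0; a cell at 0 is one with no listed peak and is not shown to lack the RNA. The groups differ in library-wide measures too: naïve cells had a median of 5231.5 peaks and pretreated cells one of 6605, while 90.1% and 84.6% of tags, respectively, lay in peaks. The part of such differences between the libraries in any result below cannot be told apart from that of the pretreatment.

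Fibroblast markers were unevenly listed. Of 12 fibroblast markers, 11 were listed and 9 were listed in at least 10 cells of a group, while Lum was at 0, Thy1 was listed in 1 naïve cell and Dcn in 3 naïve and 1 pretreated cells. Sparc, a matrix protein, had means of 29577 and 37456 TP10M and held most of the sum, while the receptor Pdgfra, listed in 10 and 6 cells, had 80.5 and 23.3 (log2 ratio -1.70) and fibronectin, Fn1, 2872 and 1432, also past 2-fold lower. Their summed level had a median of 43433 TP10M among naïve cells, with extremes of 8621 and 93645, and of 56715 among pretreated cells, with extremes of 2321 and 101752. Among 11 macrophage marker names, 7 were at 0 in every kept cell, among them Ptprc, Adgre1, Tyrobp and Spi1, and the summed level ran from 0 to 2414 in naïve and from 0 to 1397 in pretreated cells, with a median of 0 in both. Of the macrophage markers Cd68 was listed in 8 naïve and 3 pretreated cells, with means of 75.1 and 20.4, and Fcer1g in 1 and 6. The part of these marker differences in the members' values was not tested. Epithelial markers were at 0 for 6 of 6, and endothelial markers for 5 of 6.

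The chemokines did not move as a group. Against naïve cells, Cxcl12 and Cxcl10 were more than 2-fold higher in pretreated cells, Ccl7, Cxcl5 and Ccl5 were more than 2-fold lower, and Ccl2 and Cxcl1 lay within 1.1-fold. Among the 5788 genes listed in at least 10 cells of either group, which include all 7 members, 31.8% were 2-fold or more higher and 9.17% 2-fold or more lower (40.9% in either direction), so 2 of 7 higher is near the share over all genes. The 3 of 7 lower is a larger share than 9.17%, in a list too short to read further. The members' median log2 ratio was -0.09, against 0.52 for all genes compared (quartiles -0.17 and 1.23). With a median-of-ratios scaling, all ratios fell by 0.31 on the log2 scale before the pseudocount, and 1328 genes were then higher and 740 lower by 2-fold (22.9% and 12.8%), in place of 1838 and 531. With every window named for a gene counted, 9402 genes were compared, of which 1635 (17.4%) were higher and 1708 (18.2%) lower. The members' count stayed at 2 higher and 3 lower under both.

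**Figure D1:**
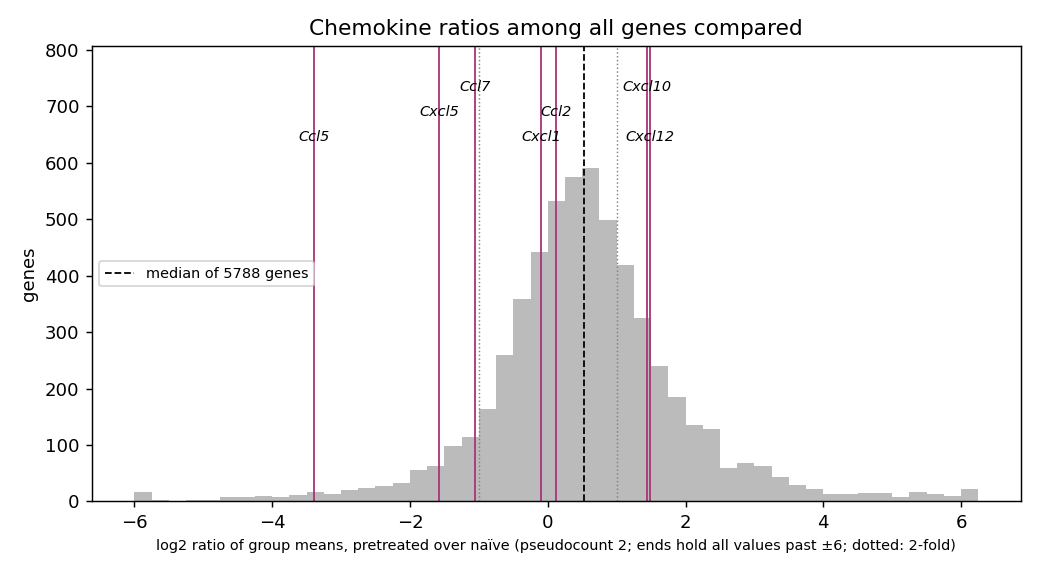
Histogram of the log2 ratio of group means, pretreated over naïve, for 5788 genes (x axis, log2 scale; y axis, number of genes), with the 7 chemokines as vertical lines, the median of all genes dashed and 2-fold dotted. The members spread from -3.39 (Ccl5) to 1.48 (Cxcl12), and 5 of the 7 lie left of the median of all genes.

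Ccl2, the main monocyte attractant, was among the most abundant RNAs of these cells. It was the gene with the third highest mean in both groups and had a peak in all 92 naïve and all 85 pretreated cells. In naïve cells its level ran from 1150 to 293355 TP10M, with a median of 63478. In pretreated cells it ran from 779 to 407375, with a median of 62553. The medians were close and the groups overlapped almost wholly, with 4 pretreated cells above the highest naïve cell. Ccl2 held more tags than any other gene in 9 naïve and 18 pretreated cells, and at most 2.93% and 4.07% of all tags of a cell. The mean was 82732 ± 62973 in naïve and 90328 ± 85364 in pretreated cells (SD over cells, from 1614160 tags, 95% Poisson interval 1611671 to 1616652, and 2444456 tags, 2441393 to 2447522). The log2 ratio of these means was 0.13 (counting interval 0.12 to 0.13), and it was -0.18 with median-of-ratios scaling and -0.075 per 10000000 sense gene tags, so its sign depends on the scale.

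Ccl7, a related monocyte attractant whose gene lies next to Ccl2 on chromosome 11, was lower in pretreated cells. It too had a peak in every kept cell. Naïve cells ran from 1291 to 198590 TP10M (median 44454), and pretreated cells from 332 to 113069 (median 23488). The ranges overlapped, but 74 of 85 pretreated cells lay below the naïve median and 8 naïve cells lay above the highest pretreated cell. Means were 52506 ± 35607 in naïve and 25359 ± 19834 in pretreated cells (SD over cells), from 1048574 tags (1046568 to 1050583) and 721066 tags (719403 to 722732). The log2 ratio of the means was -1.05 (counting interval -1.05 to -1.05 at 2 decimals).

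Cells high in one of these neighbouring genes were mostly high in the other. Their leading windows are 10136 bp apart. Across the 92 naïve cells Spearman's rho between Ccl2 and Ccl7 levels was 0.74 (Pearson's r of log2 levels 0.76), and across the 85 pretreated cells 0.75 (0.71). In both groups Ccl7 was the gene whose level followed Ccl2 most closely, among 2926 genes in naïve and 4390 in pretreated cells that were listed in at least 20% of cells, and the next gene reached 0.40 (Pkig) and 0.45 (Med4). These are descriptions over cells of 1 sample that share a library preparation. Both genes correlated weakly with the total tags of the cell, with rho between -0.05 and 0.07. The balance within the pair differed between groups: Ccl7 held a median of 39.7% of the pair's tags in naïve cells (16.5% to 85.4%) and 23.1% in pretreated cells (2.74% to 85.8%). Ccl7 exceeded Ccl2 in 25 of 92 naïve and 5 of 85 pretreated cells.

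**Figure D2:**
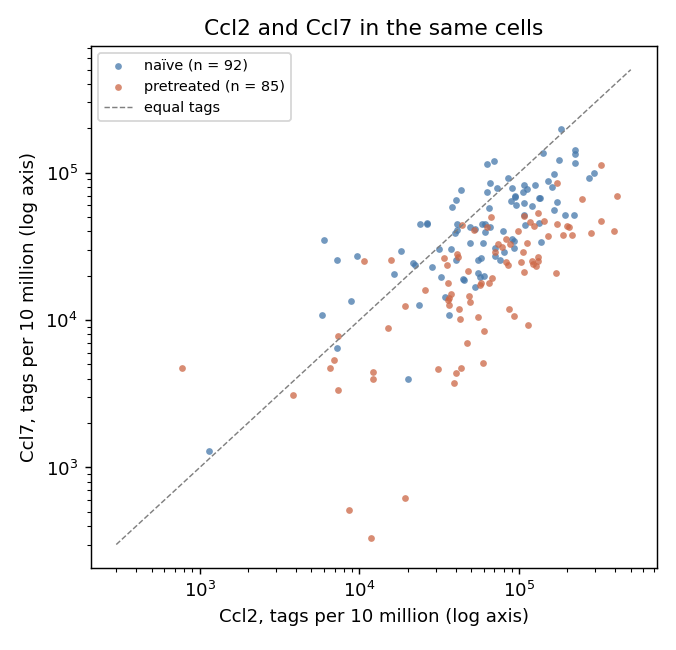
Ccl7 against Ccl2 in each kept cell, both in TP10M on log axes, with naïve and pretreated cells in different colours and a dashed line at equal tags. Levels of the genes followed each other (rho 0.74 and 0.75), and the pretreated cells lie farther below the dashed line, with 5 of 85 above it against 25 of 92.

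Ccl5, an attractant of T cells and monocytes, was the member listed in the fewest cells. It had a peak in 26 of 92 naïve cells (28.3%, exact binomial interval 19.4 to 38.6) and in 11 of 85 pretreated cells (12.9%, 6.64 to 21.98). Where listed, it ran from 220 to 36284 TP10M in naïve cells (median 2152) and from 230 to 2276 in pretreated cells (median 965). Thus 12 naïve cells lay above every pretreated cell. Means over all cells were 1355 ± 4479 and 127 ± 404, from 20404 tags (20125 to 20686) and 4606 tags (4474 to 4741), and the log2 ratio of the means was -3.39 (-3.44 to -3.34). A single naïve cell, cell 43, held 29.1% of the naïve sum. Without the highest cell of each group the ratio was -3.23, and with tags pooled over pooled totals -2.63. Both lie outside that interval, which does not cover the choice of cells or their weighting.

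Cxcl1 and Cxcl5 both attract neutrophils, and their genes lie 131.9 kb apart on chromosome 5, but they did not follow the same course. Cxcl1 was listed in more of the pretreated cells, 62 of 85 (72.9%, 62.2 to 82.01) against 49 of 92 (53.3%, 42.6 to 63.7), a difference of 19.7 percentage points. Over windows within 100 bp of the start alone, it was 22.7 points. With each cell of at least 1000000 tags thinned to that number, it was 17.2 points. Where listed, it ran from 238 to 14689 in naïve cells (median 2303) and from 212 to 11245 in pretreated cells (median 1709). More cells at a lower level gave nearly equal means, 2125 ± 3259 in naïve and 1990 ± 2558 in pretreated cells, from 43277 tags (42870 to 43687) and 57155 tags (56687 to 57626). The log2 ratio of the means was -0.09 (-0.11 to -0.08). Cells that listed Cxcl1 were deeper: in naïve cells the median total was 2689044 tags with and 2077332 without it.

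Cxcl5 was lower in pretreated cells. It was listed in 87 of 92 naïve cells (94.6%, 87.8 to 98.2) and 73 of 85 pretreated cells (85.9%, 76.6 to 92.5). Naïve cells that listed it ran from 271 to 27048 TP10M (median 4440). Those pretreated cells ran from 224 to 7402 (median 1657), and 25 naïve cells lay above the highest pretreated cell. Means were 5584 ± 5004 and 1874 ± 1722, from 116315 tags (115648 to 116985) and 57941 tags (57470 to 58415), a log2 ratio of -1.57 (-1.59 to -1.56). In pretreated cells the means of Cxcl1 and Cxcl5 were 115 TP10M apart, with Cxcl1 higher, while the cell medians, 980 and 1383, had Cxcl5 higher. Across cells, Cxcl1 and Cxcl5 levels had a rho of 0.08 in naïve and 0.12 in pretreated cells.

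Cxcl10, the interferon-inducible attractant of activated T cells, was listed in 30 of 92 naïve cells (32.6%, 23.2 to 43.2) and 62 of 85 pretreated cells (72.9%, 62.2 to 82.01). That difference of 40.3 percentage points compares with a median of 13.2 points over the 5788 genes, of which 32.8% were 20 points or more higher and 2.09% 20 points or more lower; of the members, Cxcl10 lay past that mark, and Cxcl1 did so over windows within 100 bp (22.7 points) or over all its windows (20.9). Where listed, Cxcl10 ran from 222 to 36749 (median 2311) in naïve cells and from 270 to 44039 (median 3274) in pretreated cells, so levels in listing cells overlapped over nearly the whole range. Means over all cells were 1677 ± 4813 and 4550 ± 7576, from 36183 tags (35811 to 36558) and 120923 tags (120242 to 121607), a log2 ratio of 1.44 (1.42 to 1.46). Naïve cells that listed Cxcl10 were shallower than those that did not, with median totals of 1565001 and 2557181 tags. With each cell of at least 1000000 tags thinned to that number and peaks kept at 20 tags, the shares were 30.8% of 78 naïve and 73.5% of 83 pretreated cells.

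Cxcl12, the stromal chemokine that holds progenitor cells and lymphocytes in their niches, was higher in pretreated cells. It was listed in 89 of 92 naïve and 85 of 85 pretreated cells. Naïve cells ran from 0 to 32691 TP10M (median 8142) and pretreated cells from 235 to 86820 (median 22183). The groups overlapped, with 74 of 85 pretreated cells above the naïve median and 23 above the highest naïve cell. Means were 9578 ± 7588 and 26764 ± 19952, from 185416 tags (184573 to 186262) and 847042 tags (845239 to 848848), a log2 ratio of 1.48 (1.48 to 1.49). Its place among all genes by mean level went from 77 to 15.

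**Figure D3:**
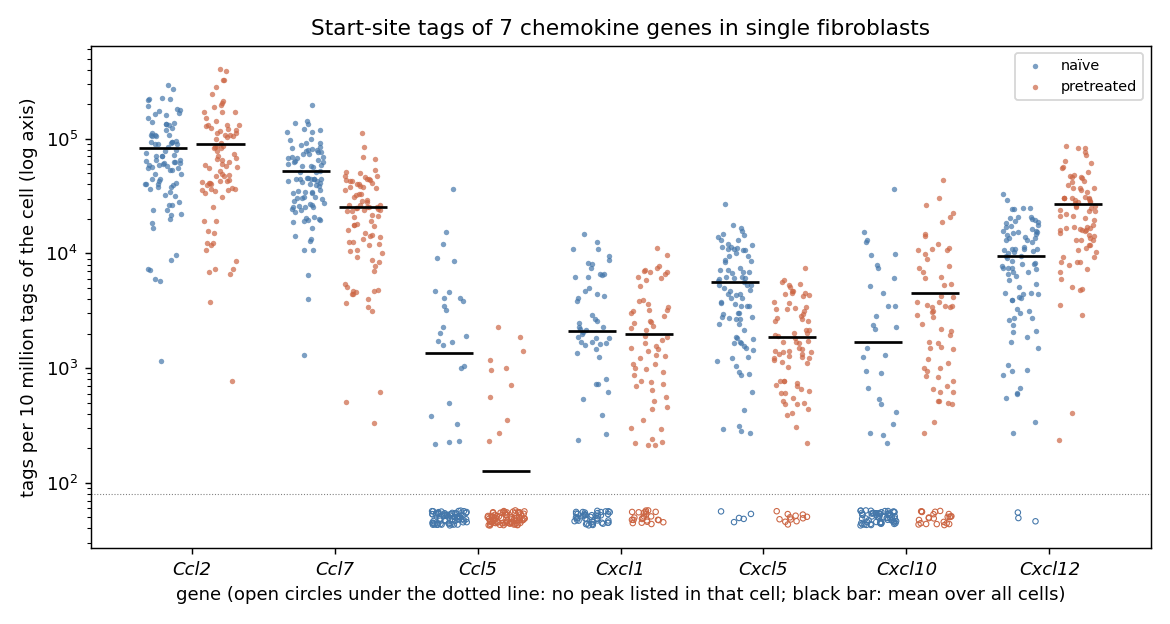
Level of each chemokine in each kept cell (y axis, TP10M, log axis; x axis, gene), naïve and pretreated cells side by side, black bars for the mean over all cells and open circles for cells with no listed peak. Ccl2, Ccl7 and Cxcl12 fill nearly every cell, while Ccl5 and Cxcl10 have many open circles; Ccl7, Ccl5 and Cxcl5 sit lower and Cxcl10 and Cxcl12 higher in pretreated cells.

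The order of mean levels in naïve cells was Ccl2, Ccl7, Cxcl12, Cxcl5, Cxcl1, Cxcl10 and Ccl5. Only the step from Ccl7 to Cxcl12 exceeded the larger of the SDs over cells of the pair. In pretreated cells the order was Ccl2, Cxcl12, Ccl7, Cxcl10, Cxcl1, Cxcl5 and Ccl5, and the steps from Ccl7 to Cxcl10 and from Cxcl5 to Ccl5 exceeded it. The other neighbours in both orders lay within the spread of the cells. Together the 7 genes held a median of 1.28% of a naïve cell's tags (0.234% to 4.23%) and 1.25% of a pretreated cell's (0.139% to 5.14%).

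Most cells listed 5 or 6 of the 7 genes. Of the naïve cells, 22 listed 4, 44 listed 5, 21 listed 6 and 4 listed all 7. Of the pretreated cells, 6 listed 4, 35 listed 5, 36 listed 6 and 6 listed all 7. The remaining cells, 1 naïve and 2 pretreated, listed 3, and none listed fewer.

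**Figure D4:**
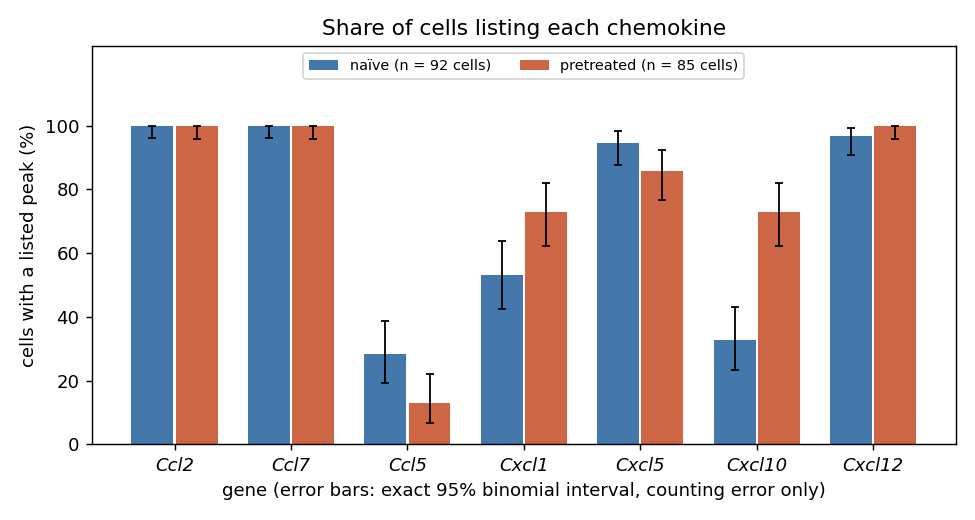
Percent of kept cells with a listed peak of each chemokine (bars from 0, y axis in percent; x axis, gene), for 92 naïve and 85 pretreated cells, with exact 95% binomial intervals. Cxcl10 went from 32.6% to 72.9% and Cxcl1 from 53.3% to 72.9%, Ccl5 from 28.3% to 12.9%, and Ccl2 and Ccl7 stood at 100% in both groups.

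Outside Ccl2 and Ccl7, the member pair with the highest Spearman's rho was Cxcl5 and Cxcl12, which lie on different chromosomes, with 0.35 in naïve and 0.52 in pretreated cells. Pearson's r of their log2 levels was 0.08 and 0.28, below that of other pairs, such as 0.21 for Ccl5 and Cxcl10 in naïve and 0.35 for Ccl7 and Cxcl1 in pretreated cells. By rho, Cxcl12 was the gene nearest to Cxcl5 among the 4390 compared in pretreated cells. This did not hold in naïve cells, where the nearest to Cxcl5 were Ldhb (0.41), Rpl4 (0.37) and Olfml3 (0.37). The nearest to Cxcl12 there were Pdia3 (0.43), Bgn (0.42) and Hmgn1 (0.41). The genes nearest to Cxcl10 in naïve cells were Ifit1 (0.55), an interferon-induced antiviral protein, the nuclear RNA Malat1 (0.53) and Trim30a (0.50), an interferon-induced ubiquitin ligase family member. Of the 30 naïve cells that listed Cxcl10, 29 also listed Ifit1, which 68 of the 92 naïve cells listed. In pretreated cells the nearest to Cxcl10 were Mis18a (0.46), Hat1 (0.45) and Pbk (0.44). Cxcl10 and Ccl5 were listed together in 12 naïve cells, where unrelated listing at their shares would give 8.48, and in 8 pretreated cells, where it would give 8.02.

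Within 1000 bp of a start, the tags of each chemokine lay mostly in a single window, least so for Cxcl1. Shares here and below are of a gene's sense tags within that distance. Peaks of a cell had to lie 300 bp apart, so a nearer second start in the same cell could not be listed. Every window is 150 bp on mm9, and distances are those deposited, from the centre of the window to the nearest RefSeq start, negative before it. Ccl2 tags lay in the window at chr11:81849006-81849155 (+ strand), 1 bp after the start, for 100% of naïve and 99.99% of pretreated tags. Ccl7 used the window at chr11:81859142-81859291 (+ strand), 2 bp after the start, for 98.99% and 96.8% of tags. For Ccl5 the window at chr11:83343947-83344096 (− strand), 1 bp before the start, held 98.8% and 89.4%, and the rest lay in the window shifted by a single base, seen in 2 naïve and 3 pretreated cells.

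Cxcl1 was the member with the smallest share of tags in its leading window. Its leading window (chr5:91320195-91320344, + strand), 2 bp before the start, held 58.2% of naïve (interval 57.8 to 58.7) and 61.1% of pretreated tags (60.7 to 61.5). Windows 4, 5 and 6 bp before the start held 15.2%, 19.4% and 0.631% of naïve and 18.97%, 10.5% and 6.95% of pretreated tags. These windows were mostly used by different cells, since peaks of a cell had to lie 300 bp apart, and 2 pretreated cells and no naïve cell had a second Cxcl1 peak. With windows chained where they start within 50 bp of the next, 97.1% and 98.7% of tags fell in 1 site.

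The leading windows of the other CXC genes lay downstream of the annotated base. Cxcl5 tags lay 59 bp after the RefSeq start (chr5:91188309-91188458, + strand) for 98.1% of naïve and 96.6% of pretreated tags. Cxcl10 tags lay 10 bp after it (chr5:92777831-92777980, − strand) for 87.5% and 92.6%. A second Cxcl10 window, 2 bp after the start, was used by 5 naïve cells, with 7.71% of the tags there, and by 1 pretreated cell, with 0.232%. The window 1 bp before the start was used by 2 pretreated cells, with 2.48% of the tags, and by no naïve cell. Cxcl12 tags lay 40 bp after the start (chr6:117118519-117118668, + strand) for 94.2% of naïve and 100% of pretreated tags. The window 3 bp farther on, at 43 bp, was used by 6 naïve cells, with 5.30% of the gene's naïve tags, and was listed in no pretreated cell.

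**Figure D5:**
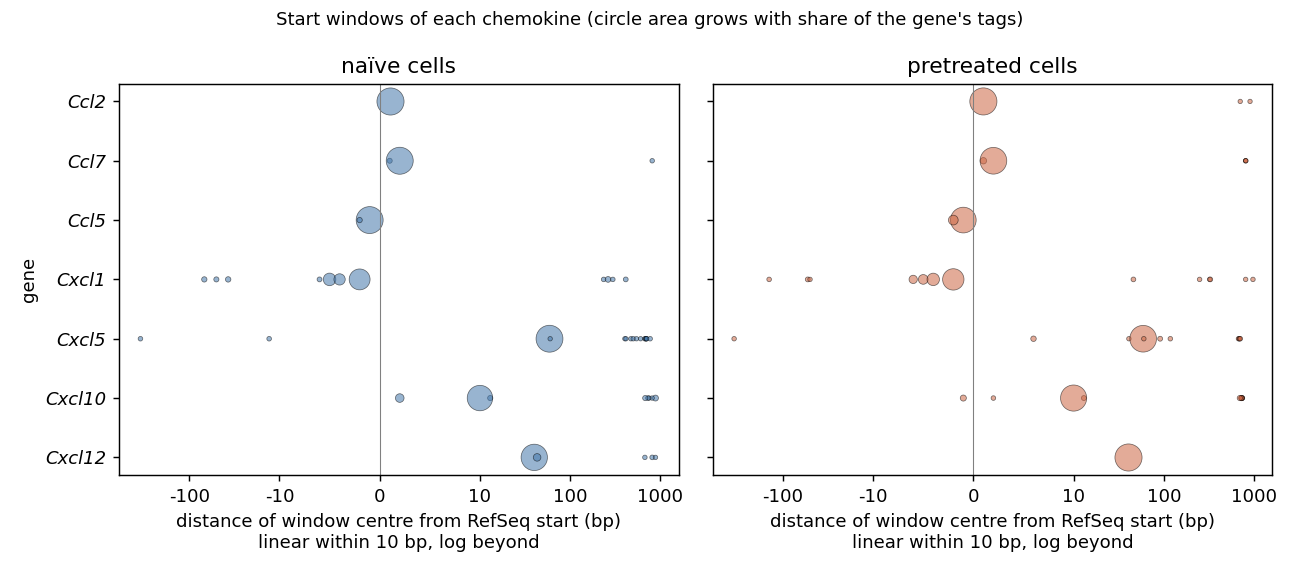
Start windows of each chemokine by the distance of their centre from the nearest RefSeq start (x axis, bp, linear within 10 bp of the start and log beyond; y axis, gene), naïve cells left and pretreated cells right, with circle area growing with the share of the gene's tags. A single large circle per gene sits at -2 to 59 bp in both panels, Cxcl1 shows a row of circles from -6 to -2, and small circles lie farther inside the genes.

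Among tags in windows within 1000 bp, peaks more than 100 bp from the start, mostly in exons and introns, held little of any member. The largest shares were in Cxcl10, where 5 naïve cells gave 3.73% and 12 pretreated cells 3.91%. In pretreated cells all of these Cxcl10 windows lay in exon 2, and in naïve cells the largest lay in intron 2, with 806 tags from 1 cell. For Cxcl1 the shares were 2.93% from 6 naïve and 1.31% from 5 pretreated cells. For Cxcl5, 16 naïve cells held 1.55% of tags in 13 such windows and 6 pretreated cells held 1.04% in 6. Windows beyond 1000 bp are outside these shares. Of the sense tags under a member's name, they held from 0.0499% (Ccl2) to 21.2% (Cxcl12) in naïve cells. In pretreated cells they held from 0.0791% (Ccl2) to 12.7% (Cxcl5), with 10.5% for Cxcl12.

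Tags gathered less tightly around the main base in pretreated cells. The focus ratio, the fraction of a peak's tags near its main position, had a median over cells of 0.97 in naïve and 0.923 in pretreated cells for Ccl2, of 0.975 and 0.894 for Ccl7, and of 0.987 and 0.881 for Cxcl5. It was 0.9875 and 0.903 for Ccl5, 0.99 and 0.973 for Cxcl1, and 0.9715 and 0.925 for Cxcl10. Cxcl12 kept the sharpest start, 0.997 and 0.99. Cxcl1 came next in both groups, although its tags were split over several windows between cells. The median over cells of all peaks moved the same way, from 0.978 to 0.947, and its part in the members' values was not tested.

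Other chemokines were listed in few cells. Of 24 further chemokine genes, 14 were at 0 in every kept cell, among them Cxcl2, Cxcl3, Ccl3 and Ccl4, and 3 reached 10 cells in a group. Ppbp, a platelet CXC chemokine gene, was listed in 18 naïve and 15 pretreated cells with means of 605 and 477 TP10M. Ccl25 had means of 90.1 and 171, and Cx3cl1, the membrane-bound chemokine, 53.6 and 126, a log2 ratio of 1.20. The interferon-inducible Cxcl9 and Cxcl11, relatives of Cxcl10, were listed in 2 and 1 pretreated cells and in no naïve cell.

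Receptors were likewise listed in few cells. Under 25 receptor names, older names included, 2 had a peak in any cell. Ackr3, a scavenging receptor for Cxcl12, was listed in 12 naïve and 36 pretreated cells with means of 172 and 285, a log2 ratio of 0.72. Cxcr6 was listed in 2 naïve cells.

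Of 27 genes of the NF-kappaB pathway and its targets, 15 reached 10 cells in a group; 7 of these were 2-fold or more higher and 2 lower in pretreated cells, beside 31.8% and 9.17% of all genes compared, and their median log2 ratio was 0.76, beside 0.52. Nfkbia, the main inhibitor of NF-kappaB, had means of 3241 and 4182 (log2 ratio 0.37). Ier3, an early response gene, had 488 and 1371 (1.49), Sod2, the mitochondrial superoxide dismutase, 361 and 811 (1.16), and the adhesion molecule Vcam1 1008 and 857 (-0.23). Rela, an activating NF-kappaB subunit, had 32.4 and 275 (3.01), the adaptor Myd88 261 and 560 (1.09), and the inhibitor Nfkbib 144 and 334 (1.20). Rela was listed in 5 naïve and 37 pretreated cells. The 2 lower genes were the interleukin-1 receptor Il1r1, with 415 and 122 (-1.74), and Rel, another NF-kappaB subunit, with 216 and 80.2 (-1.40).

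Of 13 genes of the interferon receptor and STAT pathway, 11 reached 10 cells; 7 were 2-fold or more higher and 0 were lower, beside 31.8% and 9.17% of all genes compared, and the median log2 ratio was 1.31, beside 0.52. The interferon-signal inhibitor Usp18 had means of 3226 and 10084 (log2 ratio 1.64), the transcription factor Stat2 1175 and 1203 (0.03), and Irf1 611 and 1094 (0.84). The receptor chain Ifnar2 had 76.2 and 496 (2.67), Irf7 6.56 and 351 (5.36), Stat3 138 and 295 (1.08), and the signalling inhibitor Socs3 28.8 and 120 (1.99). Few naïve cells listed these genes: Ifnar2 had 7 naïve and 55 pretreated cells, Irf7 2 and 48, Stat3 13 and 30, and Socs3 3 and 19.

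Of 11 genes for chemokine-cleaving proteases and the proteoglycans that hold chemokines at the surface, 7 reached 10 cells, with 2 higher and 1 lower, near the shares of 31.8% and 9.17% over all genes compared, and a median log2 ratio of 0.67, beside 0.52. The syndecan Sdc4 was the lower one, with means of 1271 and 500 (-1.34), while Sdc2 had 1039 and 823 (-0.34). Mmp2, a protease that cleaves Cxcl12 and Ccl7, had 319 and 510 (0.67), and Ext1, an enzyme of heparan sulfate synthesis, 92.2 and 147 (0.66). The higher ones were Mmp14 (log2 ratio 1.71) and Gpc6 (1.13), both at means under 80 TP10M.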

How the data were processed

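Single-cell start-site peaks came from 96 naïve and 96 pretreated cells, grouped by title. Reads were processed with Bowtie2 and HOMER on mm9, per the submitters' processing notes. Peaks were called in each cell with HOMER findPeaks in start-site mode, strands apart, with a size of 150 bp and a tag threshold of 200, per the file headers. The deposited signal is a peak's tags scaled to 10000000 tags of the cell, and the deposited focus ratio is a fraction, per the file headers. No molecular identifiers are named, so a tag is a read. Deduplication is not given in the sources used here.

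Tags were recovered as signal times the header total over 10000000; all 1082504 peaks came within 0.1 tag, or the rounding of the signal, of a whole number. Each peak went to the nearest window of the deposited RefSeq table starting within 2 bp, and counted for its gene on the gene's strand within 1000 bp of a start. Strand came from the window distances (16415 of 18477 gene and chromosome pairs) or GENCODE vM21; where both gave one, 99.8% were the same. Cells under 10% of the median total were left out (4 naïve, 11 pretreated). No 2 cells repeated the same totals. Group levels are means over cells, and log2 ratios add 2 to each mean. Genes listed in at least 10 cells of a group were compared, and 2-fold was the call. Intervals of tag sums and shares are 95% exact (Poisson, Clopper-Pearson). Those of ratios are centred on the ratio of means, with an approximate width from the pooled tag sums. They count reads, and do not cover repeated reads of 1 molecule, the weighting of cells or the spread over cells. The ratio procedure was tested on counts simulated with Poisson error alone, without the spread over cells or the peak threshold. That test cannot show how often 2-fold calls arise in data such as these. Members and lists were chosen with earlier results of these data known. All members were described; of each list the 4 compared genes with the highest mean and up to 4 more past 2-fold were named, and the 3 nearest genes by Spearman's rho, where listed in at least 20% of cells. One gene that this rule names is not reported here. The 384 columns of a pair of deposited matrices (both together) carry no names and were not used. Python 3.11.15, pandas 2.3.3, numpy 2.4.6 and scipy 1.17.1 were used.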

Additional observations from a re-analysis of the deposited data

Results flagged for a closer look

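Peaks on the strand opposite to the gene lay in the members' windows in a few cells, in data that the report's values leave out. They held 491 tags in 6 naïve cells and 1180 tags in 8 pretreated cells, above the 3 tags that a count of 0 allows. That is 0.0160% and 0.0277% of the tags in these windows. Cxcl5 had the largest share in both groups, 194 tags in 3 naïve and 627 tags in 5 pretreated cells, followed by Cxcl12 with 401 tags in 1 pretreated cell. With both strands counted, the members' 2-fold calls were the same.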

How the results depend on the processing

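Over 13 alternatives for levels, the 2-fold calls of all 7 members stayed on their side, and the count past 2-fold stayed at 5. The members' median log2 ratio, -0.09, was -0.17 with all 96 and 96 cells, -0.073 with cells of at least 50% of the median total, -0.26 per 10000000 sense gene tags and -0.41 with median-of-ratios scaling. The first pair changes the cells kept and the last pair the scale. The sign of Ccl2 changed under 2 alternatives, both of scale. The other ratios ran from -1.36 to -1.02 for Ccl7, from -3.70 to -2.63 for Ccl5, from -0.41 to -0.07 for Cxcl1, from -1.88 to -1.46 for Cxcl5, from 1.13 to 1.66 for Cxcl10 and from 1.17 to 1.70 for Cxcl12. Without a filter on cells listing a gene, 4648 (39.6%) of 11732 genes were higher and 1999 (17.04%) lower by 2-fold, against 1838 and 531 of 5788; at 20 cells or more, 1205 (28.8%) and 357 (8.54%) of 4182. The Cxcl1 listing difference, 19.7 points, was 22.7 over windows within 100 bp and 20.9 over all its windows. Chained within 50 bp, start windows held a share that differed between groups by 1.63 points or less for each member. Thinning left out 14 naïve and 2 pretreated cells and moved the listing shares' differences by less than 3 points. No paired analysis was possible because the cell number only names a cell and no result comes from a test. Levels under the peak threshold are not seen.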

Other observations

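Windows named for Cxcl12 but more than 1000 bp from its start were left out of its level. They held 49743 sense tags in 89 naïve cells, 21.2% of all sense tags under that name, and 99177 tags in 83 pretreated cells, 10.5%. The table names 387 windows for Cxcl12 by nearest start, so some lie far from the gene. The corresponding shares were 4.16% (naïve) and 12.7% (pretreated) for Cxcl5, and 6.56% and 8.10% for Cxcl10. For Ccl2 and Ccl7 they held under 0.5% in either group.

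Variation between cells differed among the members. The SD over cells was 67.8% of the mean for Ccl7 and 76.1% for Ccl2 in naïve cells, and 331% for Ccl5 and 287% for Cxcl10. In pretreated cells it was 78.2%, 94.5%, 317% and 167%. The 5 highest naïve cells held 65.3% of the Ccl5 sum and 56.8% of the Cxcl10 sum, against 15.2% of the Ccl7 sum.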
